A study of Homo sapiens with 12 samples.

Results

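The 30 genes described here make, sense, move, store and export cholesterol, and they are 30 of the 58381 genes counted in each library. They were listed by symbol and matched to Ensembl identifiers, and all 30 passed the filter on low counts. By role they are 18 enzymes of synthesis (7 of the mevalonate and isoprenoid steps, 3 from squalene to lanosterol and 8 from lanosterol to cholesterol), 4 genes of transcription and feedback control, 4 carriers and uptake proteins, and 4 genes of storage, efflux and receptor turnover. RNA came from 2 derivatives of VCaP, a human prostate cancer cell line that carries the androgen receptor. VCaP-T (passage 84) was kept in medium with 10 nM testosterone (T), and VCaP-CT (passage 73) was grown out of VCaP-T at 0.1 nM T. Both lines lived in RPMI medium with charcoal-stripped serum, so that the added T was the main androgen, and each line is a single adapted culture, not a set of independent derivations. The 4 groups were depleted VCaP-T (48 h in 0.1 nM T), maintained VCaP-T (10 nM T throughout), rechallenged VCaP-CT (48 h in 10 nM T) and maintained VCaP-CT (0.1 nM T throughout), with 3 libraries each and 12 in all. Whether the 3 libraries of a group came from separate cultures is not given in the labels. The p-values therefore reflect how far these libraries differ among themselves, which may be technical.

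Cholesterol is built from acetyl-CoA by way of mevalonate, isoprenoids, squalene and lanosterol. When membranes of the endoplasmic reticulum hold little sterol, SCAP escorts the precursor of SREBP2 to the Golgi for cleavage, and the freed factor raises transcription of the enzymes, while INSIG proteins hold SCAP back when sterol is plentiful. When sterol is in excess, oxysterols activate the LXR receptors, which raise the export pumps ABCA1 and ABCG1 and MYLIP, a ubiquitin ligase for lipoprotein receptors. Prostate cells use cholesterol for membranes and can use it as a precursor of steroids, and androgens are known to raise lipid synthesis genes in prostate cancer cells.

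Libraries held 30174831 to 40825204 counted fragments. Levels are given as normalized counts, which are fragment counts scaled to a common library size, and genes were called at an adjusted p under 0.01 by edgeR's quasi-likelihood test over all 19162 genes that passed the filter, with Benjamini-Hochberg adjustment. The summed normalized count of KLK3, TMPRSS2 and FKBP5, which the androgen receptor induces, ranged from 48755 to 59404 in depleted VCaP-T against 110402 to 111659 in maintained VCaP-T, and from 55536.5 to 56105 in rechallenged VCaP-CT against 10114 to 10430.5 in maintained VCaP-CT. KLK3 was the largest part of this sum in VCaP-T and FKBP5 in VCaP-CT. KLK3 averaged 78770 in maintained VCaP-T and 1669 in maintained VCaP-CT, so the sums are not a comparison of the lines. All 9 prostate luminal markers of a fixed list were found in every group. Their summed count, mostly KLK2, was 303586 to 336118 in depleted VCaP-T against 489777 to 502112 in maintained VCaP-T. It was 459947 to 480389 in rechallenged VCaP-CT against 297355 to 301171 in maintained VCaP-CT. The list did not move as a set. KLK2, KLK3 and TMPRSS2 were called lower on depletion and higher on rechallenge, and KRT18 higher on rechallenge. FOLH1 went the other way (log2 3.46 on depletion and -4.04 on rechallenge). HOXB13, KRT8, FOXA1 and STEAP2 were called in neither. Lists for other cell types moved with the groups too. The summed count of 7 fibroblast and smooth muscle markers, mostly TAGLN, LUM and COL1A1, was 1042 to 1314 in depleted VCaP-T and 562 to 651 in maintained VCaP-T, and 436 to 465 in rechallenged VCaP-CT and 1335 to 1522 in maintained VCaP-CT. The leukocyte list, mostly LYZ, had 2373 to 2828 in depleted VCaP-T and 2349 to 2691 in maintained VCaP-T, and 491 to 541 in rechallenged VCaP-CT and 134 to 156 in maintained VCaP-CT. For the hepatocyte list, mostly ALB and TTR, the sums were 1501 to 2063 in depleted VCaP-T and 401 to 436 in maintained VCaP-T, and 622 to 669.98 in rechallenged VCaP-CT and 2312 to 2441 in maintained VCaP-CT. The endothelial list had 526 to 564 in depleted VCaP-T and 524 to 576 in maintained VCaP-T, and 474 to 505 in rechallenged VCaP-CT and 307 to 323 in maintained VCaP-CT. Whether these markers have a part in the results below was not tested, and in bulk RNA fewer cells of a type and less RNA per cell cannot be told apart.

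Depleted VCaP-T replicate 2 stood apart. Over all genes its log2 values correlated at 0.959 and 0.963 with replicates 1 and 3 of its group, whereas replicates of the same group otherwise correlated at 0.990 or above. Its ratio to the mean of replicates 1 and 3 fell with exon length, with a Spearman rho of -0.58 over 12253 genes and -0.57 over the 30 genes (a description of 1 library, in which genes share depth and preparation). It differed from that mean by over 1.5-fold in 9 of the 30. LSS had 98.8 normalized counts there, against 417 and 377 in replicates 1 and 3, while PMVK had 7323 there against 3124 and 3463. The library enters the spread that all comparisons share, so the counts of calls over the 30 genes are given with and without it. Some other libraries differed from their sisters with the GC content of exons. Over the 30 genes rho was -0.79 and 0.81 in rechallenged VCaP-CT replicates 2 and 3. In maintained VCaP-T replicates 1 and 3 it was 0.73 and -0.68. In each of these libraries at most 1 of the 30 differed by over 1.5-fold.

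**Figure D1:**
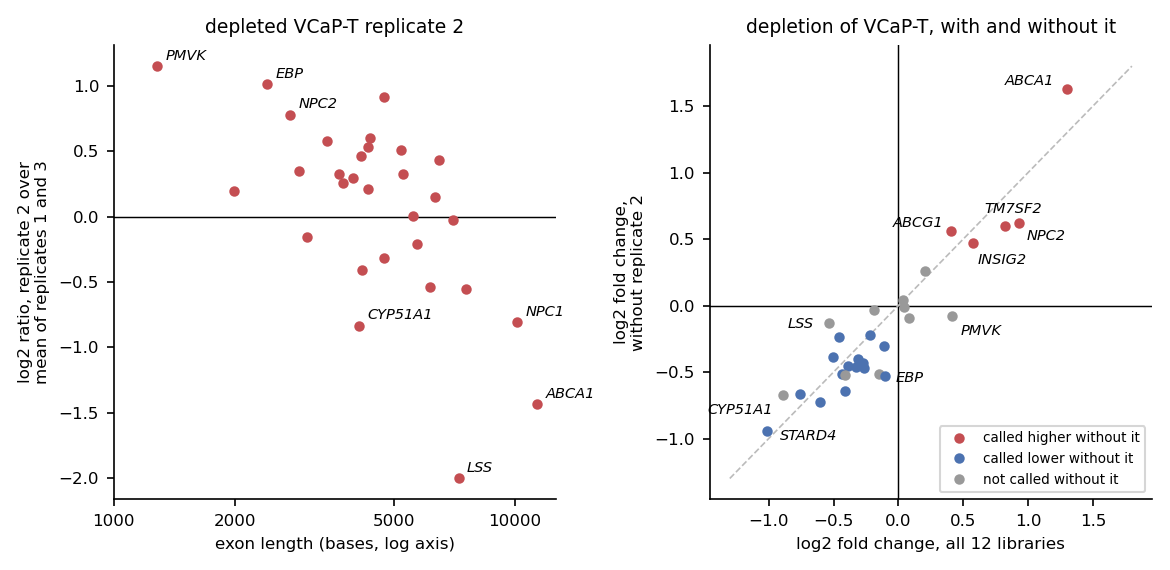
Left, log2 ratio of depleted VCaP-T replicate 2 to the mean of replicates 1 and 3 (y axis) against exon length in bases (x axis, log scale), one point per gene of the 30. PMVK lies highest at 1.15 and LSS lowest, 4.01-fold under that mean. Right, log2 fold change on depletion without that library (y axis) against the value with all 12 libraries (x axis), colored by the call without it; the dashed line marks equal values, and 5 genes were called higher and 15 lower without it.

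Returning T to VCaP-CT raised the pathway broadly, and removing it from VCaP-T lowered part of it. On rechallenge, 17 of the 30 genes (56.7%) were called higher at an adjusted p under 0.01, where 7.07% of the 19162 genes tested were, and 0 were called lower, where 7.19% were. On depletion, 6 of 30 (20.0%) were called lower, where 3.83% of all genes were, and 3 (10.0%) higher, where 6.15% were. The median log2 fold change of the 30 was 0.76 on rechallenge and -0.24 on depletion, beside -0.02 and 0.04 over all genes tested. At an unadjusted p under 0.05, 1 gene was lower on rechallenge, ABCA1, and DESeq2 called it lower too. Without depleted VCaP-T replicate 2, 15 of 30 were called lower on depletion (12.6% of all genes) and 5 higher (14.4%), and on rechallenge 19 were called higher (19.0%) and 2 lower (17.6%). All calls made with the 12 libraries in these comparisons held in that fit. Fitting only the 6 VCaP-T libraries gave 0 higher and 1 lower on depletion, so most depletion calls depended on fitting VCaP-CT too.

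Of the 30, 6 were called lower on depletion and higher on rechallenge: HMGCS1, SQLE, NSDHL and DHCR7 of the synthesis enzymes, INSIG1 of the feedback genes and the carrier STARD4. Another 11 were called higher on rechallenge alone, 3 were called higher on depletion alone (INSIG2, TM7SF2 and NPC2), and 10 were called in neither. Without depleted VCaP-T replicate 2, all 15 genes called lower on depletion were among the 19 called higher on rechallenge, and 9 of those 11 were among them (ACAT2, EBP, FDFT1, FDPS, IDI1, MSMO1, MVK, NPC1 and SC5D). Of the 18 enzymes, 13 were called higher on rechallenge and 0 lower, with a median of 0.89, and 4 were called lower and 1 higher on depletion, with a median of -0.29. Without replicate 2 of the depleted group, 14 enzymes were called higher on rechallenge (median 0.89), and 12 lower and 1 higher on depletion (median -0.44).

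**Figure D2:**
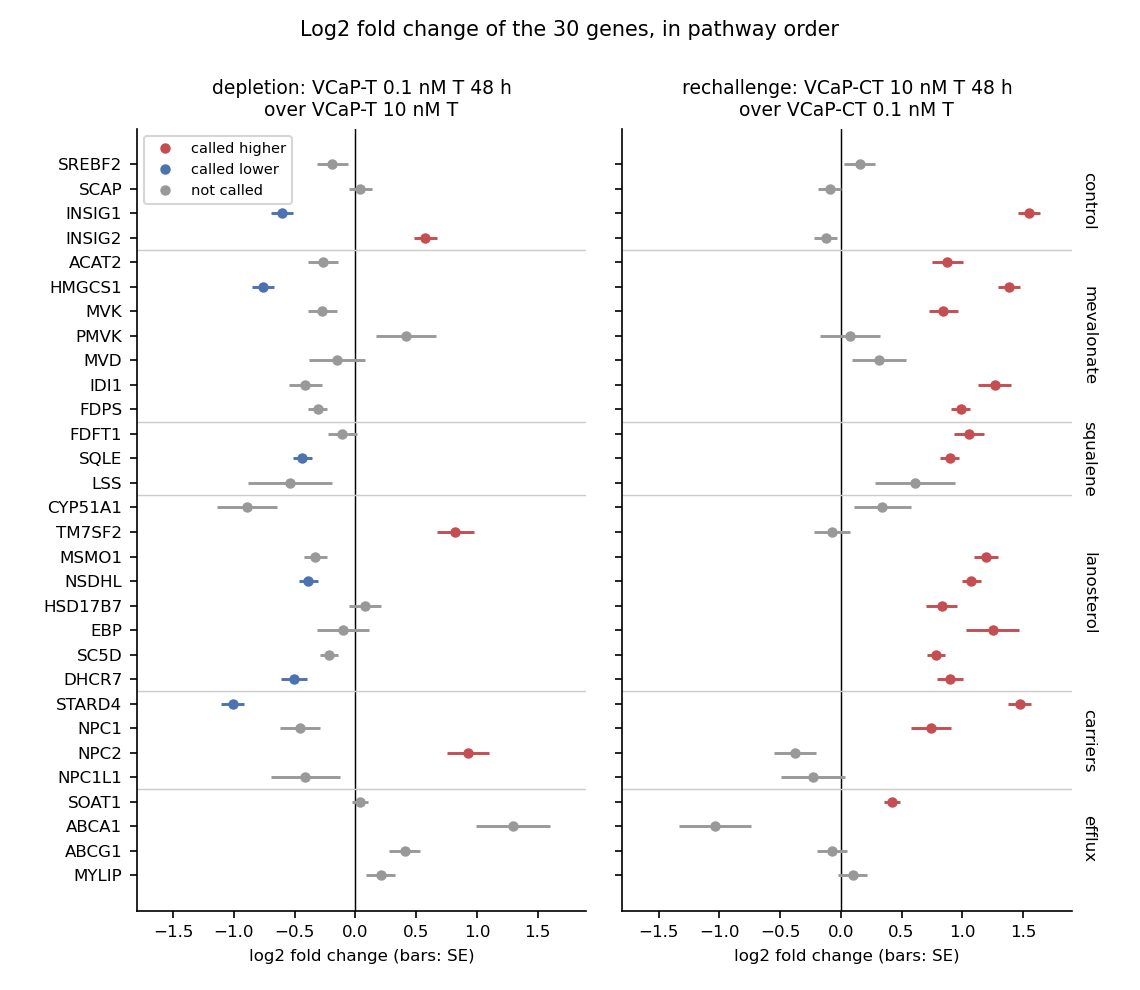
Log2 fold change (x axis) of the 30 genes in pathway order (y axis), on depletion of VCaP-T (left) and rechallenge of VCaP-CT (right). Points are the fitted values over 3 libraries a group, bars the SE, and colors the calls; values on rechallenge reach 1.55 for INSIG1, while TM7SF2, INSIG2, NPC2, ABCA1, ABCG1 and SCAP lie right of 0 on depletion and left of 0 on rechallenge.

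The genes of feedback control did not move as a unit. INSIG1 (chromosome 7, 155297776 to 155310235 of GRCh38, + strand), which holds SCAP in the endoplasmic reticulum and is itself a target of SREBP, had 3729.8, 4671 and 3723 normalized counts in depleted VCaP-T, against 5996, 6179 and 6249 in maintained VCaP-T. It had 11569.8, 11528 and 11079 in rechallenged VCaP-CT, against 3769, 4032 and 3894 in maintained VCaP-CT. The groups of each pair did not overlap, and rechallenged VCaP-CT stood above every other group. INSIG1 was 2.92-fold higher on rechallenge (log2 1.55, SE 0.09, adjusted p = 3.37e-07), which was the largest change of the 30, and lower on depletion (log2 -0.60, SE 0.09, adjusted p = 0.000694). Without replicate 2 of the depleted group, whose value was the highest of the 3, the log2 value on depletion was -0.72 (SE 0.04).

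INSIG2 (chromosome 2, 118088452 to 118110997, + strand), the second retention protein, went the other way. It had 538, 671 and 552 normalized counts in depleted VCaP-T, against 377, 402 and 400 in maintained VCaP-T (log2 0.58, SE 0.09, adjusted p = 0.00133). That rise was not called in the fit of the 6 VCaP-T libraries alone (adjusted p = 0.0482). In VCaP-CT it had 582, 608 and 560 after rechallenge and 632, 635 and 641 at 0.1 nM T, a log2 difference of -0.13 with a 95% interval of -0.33 to 0.08. Per exon length INSIG1 was the more abundant of the pair in each group, with 31.4 against 4.22 FPKM in depleted VCaP-T and 88.6 against 4.19 FPKM in rechallenged VCaP-CT.

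SREBF2, which encodes SREBP2, and SCAP were called in neither treatment. SREBF2 had 8858 ± 1829 normalized counts in depleted VCaP-T and 10114 ± 539 in maintained VCaP-T, and 14434 ± 951 in rechallenged VCaP-CT and 12955 ± 238 in maintained VCaP-CT (SD, n = 3 each). Its log2 fold change on rechallenge was 0.16 (95% interval -0.12 to 0.43), and it was called there without depleted VCaP-T replicate 2 (0.16, SE 0.05, adjusted p = 0.00948). For SCAP the log2 fold changes were 0.04 on depletion and -0.09 on rechallenge, with intervals of -0.16 to 0.24 and -0.30 to 0.11.

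**Figure D3:**
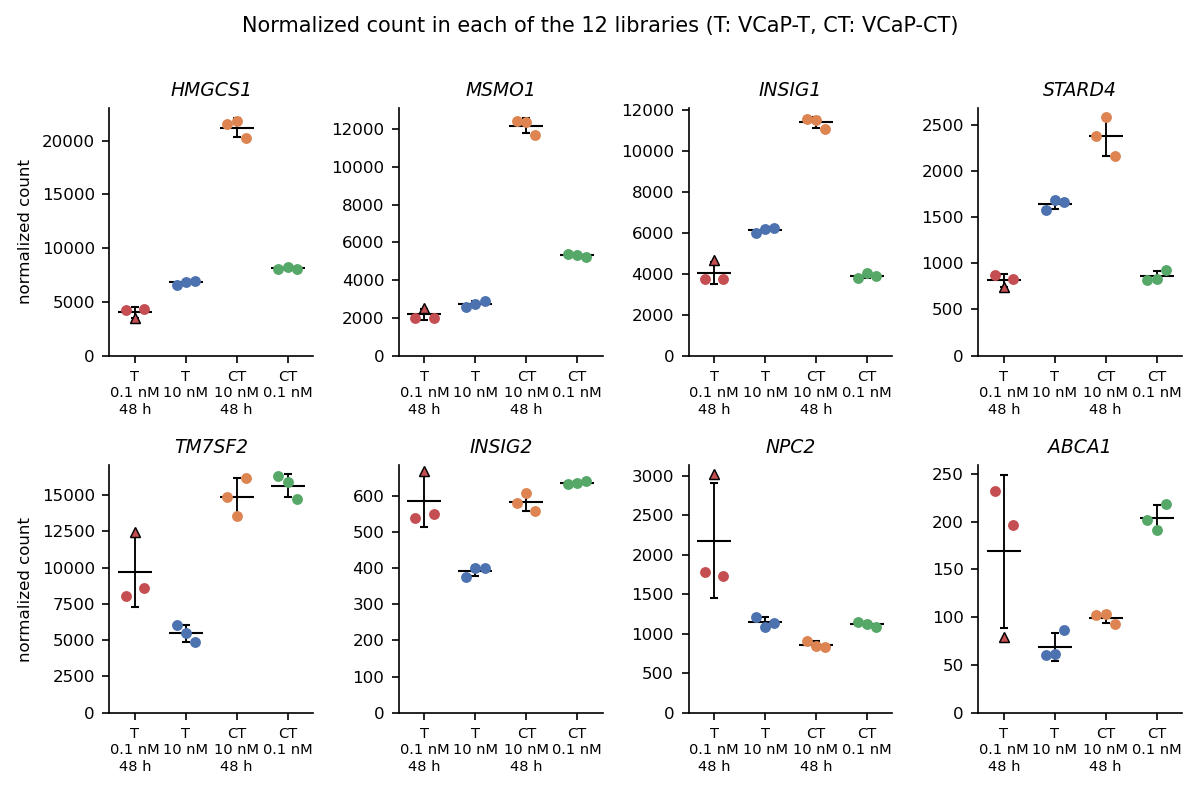
Normalized count (y axis, from 0) of 8 genes in the 12 libraries, by group (x axis; T is VCaP-T and CT is VCaP-CT, with nM of testosterone and hours after the switch). Points are libraries, the black-edged triangle is depleted VCaP-T replicate 2, and lines with bars are the mean and SD of 3. In HMGCS1, MSMO1, INSIG1 and STARD4 the 3 rechallenged VCaP-CT libraries lie above the other 9.

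At the mevalonate and isoprenoid steps 5 of 7 genes were called higher on rechallenge, with and without depleted VCaP-T replicate 2, and 1 of 7 was called lower on depletion, against 5 of 7 without it. HMGCS1 (chromosome 5, 43289395 to 43313512, - strand), which makes the 3-hydroxy-3-methylglutaryl-CoA from which mevalonate is formed, had 21590.3, 21844 and 20224 normalized counts in rechallenged VCaP-CT, against 8056, 8243 and 8060.5 in maintained VCaP-CT. It had 4236, 3451 and 4355 in depleted VCaP-T, against 6559, 6872 and 6989 in maintained VCaP-T. No groups overlapped, and the order from low to high was depleted VCaP-T, maintained VCaP-T, maintained VCaP-CT and rechallenged VCaP-CT, the middle pair being 0.25 apart on the log2 scale (adjusted p = 0.0348, not called). HMGCS1 was 2.61-fold higher on rechallenge (log2 1.39, SE 0.09, adjusted p = 6.88e-07) and fell by 0.76 on the log2 scale on depletion (SE 0.09, adjusted p = 0.000123).

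IDI1, the isomerase of isopentenyl diphosphate, had 12955, 12927 and 12069 normalized counts in rechallenged VCaP-CT, against 5083, 5283 and 5416 in maintained VCaP-CT (log2 1.27, SE 0.14, adjusted p = 4.20e-05). On depletion it had 3771, 5747 and 3808, against 5672, 5887 and 6172 in maintained VCaP-T. Replicate 2 was the only depleted library that reached the range of the 10 nM T group, and the log2 value was -0.41 with it (adjusted p = 0.049, not called) and -0.64 without it (adjusted p = 8.87e-09). FDPS, which makes farnesyl diphosphate, MVK, the mevalonate kinase, and ACAT2, the cytosolic acetyl-CoA thiolase, were also called higher on rechallenge, with log2 values of 0.99, 0.84 and 0.88, and were called lower on depletion in the fit without replicate 2 (-0.41, -0.43 and -0.47). FDPS was called lower on depletion by DESeq2 as well.

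PMVK and MVD, the kinase and the decarboxylase between those steps, were called in neither treatment. PMVK had 5859.7 ± 452 normalized counts in rechallenged VCaP-CT and 5565 ± 17.6 in maintained VCaP-CT, a log2 difference of 0.07 with a wide 95% interval of -0.46 to 0.61. Its log2 value on depletion was 0.41 with replicate 2 and -0.08 without it, so the sign rested on that library. MVD had 469, 418 and 587 in rechallenged VCaP-CT, against 398, 363 and 426 in maintained VCaP-CT, and these ranges overlapped (log2 0.31, SE 0.22, adjusted p = 0.347).

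From squalene to lanosterol, FDFT1 and SQLE moved and LSS could not be placed. FDFT1, the squalene synthase, had 8837, 8423 and 8684 normalized counts in rechallenged VCaP-CT, against 4127, 4293 and 4065 in maintained VCaP-CT (log2 1.06, SE 0.12, adjusted p = 5.81e-05). SQLE, the squalene epoxidase, had 13129, 12887 and 12356 there, against 6649, 6999 and 6972 (log2 0.90, SE 0.08, adjusted p = 7.28e-06). These are rises of 2.08-fold and 1.86-fold with no overlap of the libraries. On depletion SQLE had 3232, 3725 and 3188, against 4366, 4583 and 4778 in maintained VCaP-T, and fell by 0.44 on the log2 scale (SE 0.08, adjusted p = 0.00233). That call was lost without depleted VCaP-T replicate 3 or without maintained VCaP-T replicate 2 or 3 (adjusted p up to 0.0158). It was also lost with the 6 VCaP-T libraries alone (adjusted p = 0.0479). FDFT1 was not called on depletion with all libraries and was called lower without replicate 2 of the depleted group (log2 -0.30), in which it had 4929, against 3378 and 3538 in replicates 1 and 3.

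LSS, which closes the rings of lanosterol, had 965, 1095 and 1279 normalized counts in rechallenged VCaP-CT, all above the 767, 744 and 677 of maintained VCaP-CT. It was not called with all libraries (log2 0.61, SE 0.33, adjusted p = 0.217) and was called without depleted VCaP-T replicate 2, a library outside that comparison (log2 0.61, SE 0.08, adjusted p = 6.59e-06). The SE of LSS on rechallenge was the widest of the 30.

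Between lanosterol and cholesterol, 6 of 8 genes were called higher on rechallenge, with and without depleted VCaP-T replicate 2, and on depletion 2 were called lower and 1 higher, against 5 and 1 without it. MSMO1 (chromosome 4, 165327623 to 165343160, + strand), the methylsterol monooxygenase, had 12428, 12382 and 11717 normalized counts in rechallenged VCaP-CT, against 5385, 5318 and 5247 in maintained VCaP-CT (log2 1.20, SE 0.10, adjusted p = 4.19e-06). It had 1976, 2543 and 2013 in depleted VCaP-T, against 2574, 2721 and 2914 in maintained VCaP-T. Replicate 2 of the depleted group lay just under the 10 nM T group and its sisters further below, and the log2 value on depletion was -0.33 with it (adjusted p = 0.0304) and -0.46 without it (adjusted p = 1.66e-06).

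NSDHL, the sterol dehydrogenase that works with MSMO1, had 2466, 2436 and 2536 normalized counts in rechallenged VCaP-CT, against 1146, 1211 and 1175 in maintained VCaP-CT (log2 1.07, SE 0.08, adjusted p = 1.63e-06). On depletion it had 639, 768 and 701, against 933, 925 and 897 in maintained VCaP-T (log2 -0.39, SE 0.08, adjusted p = 0.00467), a call lost when any 1 of these 6 libraries other than depleted replicate 2 was left out (adjusted p up to 0.0265). EBP, the sterol isomerase, had 4957, 4432 and 4728 in rechallenged VCaP-CT, against 1969.8, 2011 and 1957 in maintained VCaP-CT (log2 1.25, SE 0.22, adjusted p = 0.0012). The groups of each of these pairs were apart. On depletion EBP had 1210.2, 2604 and 1365, against 1862, 1852 and 1835 in maintained VCaP-T, so that replicate 2 lay above that group and its sisters below it, with a log2 value of -0.10 with it (adjusted p = 0.764) and -0.53 without it (adjusted p = 1.67e-06).

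DHCR7, a sterol reductase of the final steps, rose on rechallenge (log2 0.90, SE 0.11, adjusted p = 8.61e-05) and fell on depletion (log2 -0.51, SE 0.11, adjusted p = 0.00626). The reductase had 6113, 6030.1 and 6829.9 normalized counts in rechallenged VCaP-CT against 3543, 3364 and 3294 in maintained VCaP-CT, and 2319, 1742 and 2298 in depleted VCaP-T against 3181, 3031 and 2831 in maintained VCaP-T. The fall was not called when any 1 of the maintained VCaP-T libraries was left out (adjusted p up to 0.0301). HSD17B7 and SC5D, a ketoreductase and a desaturase, rose by 0.83 and 0.78 on rechallenge. Their values on depletion, 0.08 and -0.22, were not called with all libraries, and SC5D was called lower without replicate 2 of the depleted group.

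TM7SF2 (chromosome 11, 65111845 to 65116384, + strand), a sterol reductase of the same stretch, was the 1 enzyme called higher on depletion. It had 8021, 12447 and 8597 normalized counts in depleted VCaP-T, against 6051, 5506 and 4881 in maintained VCaP-T (log2 0.82, SE 0.15, adjusted p = 0.00259). In VCaP-CT it had 14895, 13527 and 16173 after rechallenge and 16309.9, 15897 and 14754 at 0.1 nM T, with overlapping ranges. Without replicate 2, which held its highest value in VCaP-T, the rise on depletion was 0.60 (SE 0.08, adjusted p = 5.87e-06), and it was not called without maintained VCaP-T replicate 2 or 3 (adjusted p up to 0.0175). CYP51A1, the lanosterol demethylase, was not called, with log2 values of -0.89 on depletion (SE 0.25, adjusted p = 0.0243) and 0.34 on rechallenge (SE 0.23), although DESeq2 and the fit without a filter called it lower on depletion. Exons of other genes cover 82.2% of its exon length and fragments in such overlaps were left out without regard to strand, so its counts, 105 to 303 on average by group, come from a small part of the gene. For ACAT2 the covered share was 52.3%, for FDPS 18.6%, HMGCS1 15.0% and IDI1 14.8%, and each was less than 10% in the other members. The files also list 8 pseudogenes of FDPS, 3 each of IDI1 and CYP51A1 and 2 of HSD17B7, and fragments that fit several places were not counted, so the levels of these genes are uncertain.

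**Figure D4:**
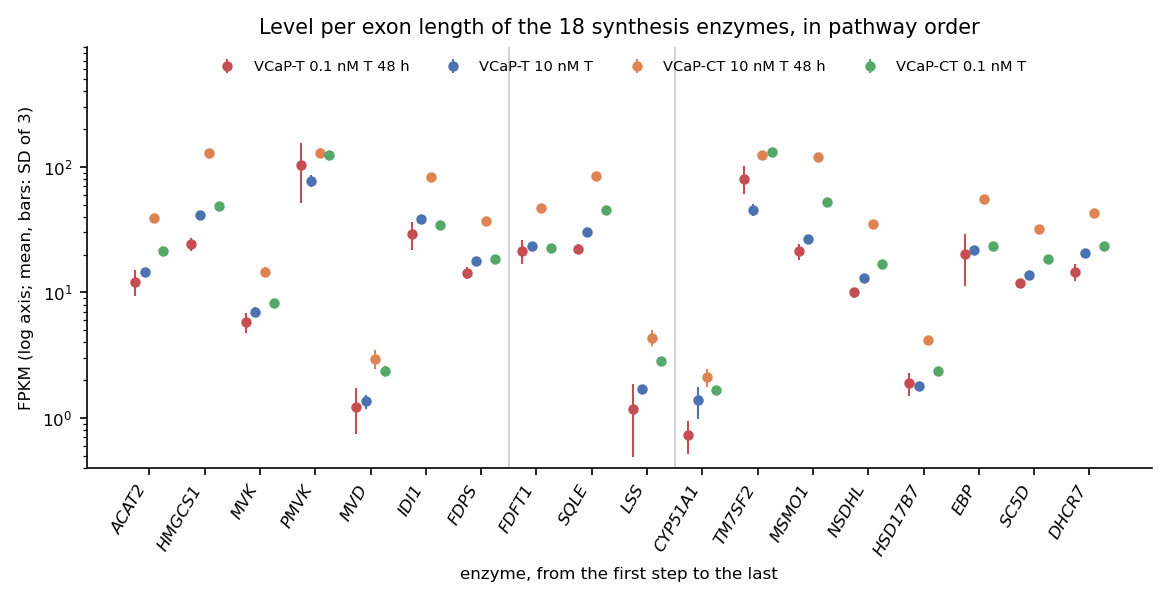
Level per exon length in FPKM (y axis, log scale) of the 18 enzymes, in pathway order (x axis), by group; points are means and bars the SD of 3 libraries. Rechallenged VCaP-CT lies highest for 17 of 18 enzymes, TM7SF2 excepted, and MVD, LSS, CYP51A1 and HSD17B7 lie below 5 FPKM in every group. The CYP51A1 values are understated, since 82.2% of its exon length is shared with other genes and was not counted.

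Levels per exon length spanned the pathway widely. The length includes exon bases shared with other genes, where fragments were left out. FPKM is therefore understated, most for CYP51A1 (82.2% of its length) and ACAT2 (52.3%), and to a lesser degree for HMGCS1 (15.0%). The order of genes below, with CYP51A1 lowest, and the sums carry this limit. In rechallenged VCaP-CT the highest were PMVK at 130 ± 10.0, HMGCS1 at 128 ± 5.26, TM7SF2 at 124 ± 11.02 and MSMO1 at 119 ± 3.90 FPKM, whose libraries overlapped except that MSMO1 lay just under HMGCS1, and the lowest were CYP51A1 at 2.11 ± 0.35 and MVD at 2.95 ± 0.52 FPKM (SD, n = 3). The summed FPKM of the 18 enzymes was 330, 510 and 348 in depleted VCaP-T, against 404, 399.7 and 389 in maintained VCaP-T, and 1002, 962 and 991 in rechallenged VCaP-CT, against 599, 601 and 588 in maintained VCaP-CT. The sum in depleted VCaP-T replicate 2 was the only one of its group above maintained VCaP-T. PMVK alone had 162 FPKM of it, against 69.3 and 76.8 in replicates 1 and 3.

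Among the carriers, STARD4 (chromosome 5, 111496033 to 111512590, - strand), which moves sterol between membranes in the cytosol, moved with the enzymes. It had 878, 740 and 830 normalized counts in depleted VCaP-T, against 1583, 1687 and 1665 in maintained VCaP-T (log2 -1.01, SE 0.09, adjusted p = 2.09e-05), and 2386, 2586 and 2167 in rechallenged VCaP-CT, against 820, 830 and 924 in maintained VCaP-CT (log2 1.47, SE 0.09, adjusted p = 5.68e-07). At 0.1 nM T the lines overlapped, with a log2 difference of 0.07 (VCaP-CT over depleted VCaP-T, 95% interval -0.13 to 0.27). STARD4 was the gene with the largest fall on depletion among those called, with and without replicate 2.

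NPC1 and NPC2, which pass cholesterol out of the lysosome in turn, went apart. NPC2 (chromosome 14, 74476192 to 74494177, - strand), the soluble partner, had 1782, 3024 and 1736 normalized counts in depleted VCaP-T, against 1213, 1080.1 and 1142 in maintained VCaP-T (log2 0.93, SE 0.17, adjusted p = 0.00292), and the rise was 0.62 without replicate 2 of the depleted group. Leaving out any 1 of the maintained VCaP-T libraries ended the call (adjusted p up to 0.0189). In rechallenged VCaP-CT it had 912, 847 and 827, all below the 1145, 1121 and 1089 of maintained VCaP-CT (log2 -0.38, adjusted p = 0.144 with all libraries and 2.75e-05 without replicate 2). NPC1, the membrane partner, had 1651, 1649.9 and 1718 in rechallenged VCaP-CT, against 1030.3, 1009 and 967 in maintained VCaP-CT (log2 0.74, SE 0.17, adjusted p = 0.00638). That call was lost when any 1 library of the pair was left out (adjusted p 0.0211 to 0.0302), although the groups did not overlap. Without replicate 2 of the depleted group, NPC1 was called higher on rechallenge and lower on depletion. NPC1L1, the intestinal uptake protein, was barely present, with 10 to 24 raw fragments in each library.

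Of the 4 genes of storage, efflux and receptor turnover, 1 was called higher on rechallenge and 0 lower, and 0 were called on depletion with all libraries. ABCA1 (chromosome 9, 104781002 to 104928237, - strand), the export pump, had 232, 79.0 and 196 normalized counts in depleted VCaP-T, against 60.5, 60.8 and 86.0 in maintained VCaP-T. It had 102, 103 and 92.8 in rechallenged VCaP-CT, against 202, 191 and 218 in maintained VCaP-CT. The VCaP-CT groups were apart, and in VCaP-T only replicate 2 of the depleted group lay within the range at 10 nM T. ABCA1 missed the call on depletion (log2 1.30, SE 0.30, adjusted p = 0.0107) and on rechallenge (log2 -1.04, SE 0.30, adjusted p = 0.0235), and without replicate 2 it was called in both, at 1.62 (adjusted p = 5.57e-08) and -1.04 (adjusted p = 1.96e-06). With all libraries it was also called higher on depletion by DESeq2, without a filter and with upper quartile scaling. The level was low, at 0.51 FPKM or less on average in every group, and its 11350 bases of exon are the longest of the 30.

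ABCG1, the second pump, was not called on rechallenge (log2 -0.07, 95% interval -0.34 to 0.20). On depletion it had 1132, 778 and 1126 normalized counts, against 771, 791 and 736 in maintained VCaP-T, and its log2 value was 0.40 with replicate 2 (adjusted p = 0.0372) and 0.56 without it (adjusted p = 1.21e-06). MYLIP was called in neither treatment, with log2 values of 0.21 on depletion and 0.10 on rechallenge. SOAT1, which esterifies cholesterol for storage, was not called on depletion (log2 0.04, 95% interval -0.10 to 0.18) and rose on rechallenge, with 7548, 7567 and 7090.2 against 5586, 5564 and 5417 normalized counts (log2 0.42, SE 0.06, adjusted p = 0.000455).

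The lines also differed before any switch of medium, a comparison in which line, passage and T level cannot be told apart. Of the 30, 10 were called higher in maintained VCaP-CT than in maintained VCaP-T, where 14.8% of all genes were, and 3 lower, where 15.7% were. Without depleted VCaP-T replicate 2, which is in neither group but in the shared spread, the counts were 18 and 5. In that fit 26.7% of all genes were called higher and 26.7% lower. The highest were ABCA1 (log2 1.55, SE 0.30, adjusted p = 0.0013), TM7SF2 (1.51, SE 0.15, adjusted p = 7.36e-06), MSMO1 (0.96, SE 0.10, adjusted p = 7.76e-06) and ABCG1 (0.77, SE 0.12, adjusted p = 0.000314). TM7SF2 thus had 16309.9, 15897 and 14754 normalized counts in VCaP-CT against 6051, 5506 and 4881 in VCaP-T. The 3 lower were STARD4 (log2 -0.94), INSIG1 (-0.66) and SOAT1 (-0.33). Of the 18 enzymes 6 were called higher and 0 lower, against 13 higher and 1 lower, IDI1, without that library. ACAT2, MYLIP and NSDHL lost their calls in 4 or 5 of the 6 fits that each left out 1 of these libraries (adjusted p up to 0.0251).

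At 0.1 nM T, maintained VCaP-CT was compared with depleted VCaP-T. Line cannot be told apart here from passage or from time at that level, which was 48 h in VCaP-T. Here 13 of 30 were called higher in VCaP-CT, where 13% of all genes were, and 2 lower, where 16.4% were. Without replicate 2 the counts were 21 and 2, where 23.2% of all genes were called higher and 24.4% lower. All 18 enzymes had a value above 0, with a median of 0.69, and all 18 were called higher without replicate 2. MSMO1 had 5385, 5318 and 5247 normalized counts in VCaP-CT against 1976, 2543 and 2013 in depleted VCaP-T (log2 1.29, SE 0.10, adjusted p = 7.59e-07), the largest difference among those called. CYP51A1 (1.17, SE 0.25, adjusted p = 0.0023), SQLE (1.02, SE 0.08, adjusted p = 8.54e-07) and HMGCS1 (1.02, SE 0.09, adjusted p = 2.83e-06) came next. NPC2 (-0.96, SE 0.17, adjusted p = 0.000784) and SOAT1 (-0.37) were lower, while STARD4, INSIG1 and INSIG2 were not called (0.07, -0.05 and 0.12, with adjusted p from 0.331 to 0.672). Without replicate 2, INSIG2 was called higher (0.23, SE 0.07, adjusted p = 0.00771). FDPS, MVD, MVK, SREBF2 and TM7SF2, called here, each lost the call in 3 to 5 of the 6 fits with 1 of these libraries left out.

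At 10 nM T, 22 of 30 were called higher in rechallenged VCaP-CT than in maintained VCaP-T, where 12.0% of all genes were, and 0 lower, where 13.2% were. At an unadjusted p under 0.05, 2 were lower, NPC2 and SCAP, and these were the 2 lower calls without replicate 2 (23.2% of all genes), beside 26 higher (24.7%). MSMO1 was 4.45-fold higher (log2 2.15, SE 0.10, adjusted p = 1.43e-08), HMGCS1 3.12-fold (1.64, SE 0.09, adjusted p = 5.96e-08), SQLE 2.80-fold (1.48, SE 0.08, adjusted p = 4.87e-08) and TM7SF2 2.71-fold (1.44, SE 0.15, adjusted p = 1.53e-05). The median over the 30 was 1.04, and all 18 enzymes had a value above 0, of which 16 were called, and 18 without replicate 2. SREBF2 and LSS, at 0.51 and 1.35, lost their calls in each of the 6 fits with 1 of these libraries left out (adjusted p up to 0.033), MVD in 3 of them (up to 0.0123) and MYLIP in 2 (up to 0.0121). At 10 nM T, too, line cannot be told apart from passage or from time at that level, which was 48 h in VCaP-CT. These 3 comparisons of the lines share groups with each other and with depletion and rechallenge, so their values are given side by side and not as repeats.

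Whether the lines differed in the size of their response was tested in the same model, as the log2 response to 10 nM T in VCaP-CT minus that in VCaP-T. Of the 30, 4 were called higher, INSIG1, MSMO1, NSDHL and FDPS, where 0.804% of all genes were, and 0 lower, where 0.162% were (0 also at an unadjusted p under 0.05 and by DESeq2). INSIG1 had a log2 fold change of 1.55 on rechallenge of VCaP-CT and -0.60 on depletion of VCaP-T, a difference in response of 0.94 (SE 0.13, adjusted p = 0.00202). For MSMO1 the values were 1.20 and -0.33 and the difference 0.86 (SE 0.14, adjusted p = 0.00522). NSDHL differed by 0.69 (SE 0.11, adjusted p = 0.00558) and FDPS by 0.68 (SE 0.11, adjusted p = 0.00749).

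The median difference in response over the 30 was 0.47, and 0.01 over all genes tested, with 26 of 30 above 0. Without depleted VCaP-T replicate 2, 19 were called higher (5.62% of all genes) and 0 lower (1.77%), and the median was 0.50. With any 1 library of the other groups left out, 0 or 1 were called, and with depleted VCaP-T replicate 1 or 3 left out 6 or 2. The smallest adjusted p of INSIG1 under these fits was 1.54e-08, without depleted VCaP-T replicate 2, and the largest 0.0124. PMVK and SREBF2 had values of 0.49 and -0.04 with all libraries and of -0.0047 and 0.13 without that library, and SCAP had -0.05 and -0.10, each with a 95% interval that held 0. The comparison also differs in the direction of the switch, since VCaP-T lost T and VCaP-CT gained it.

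**Figure D5:**
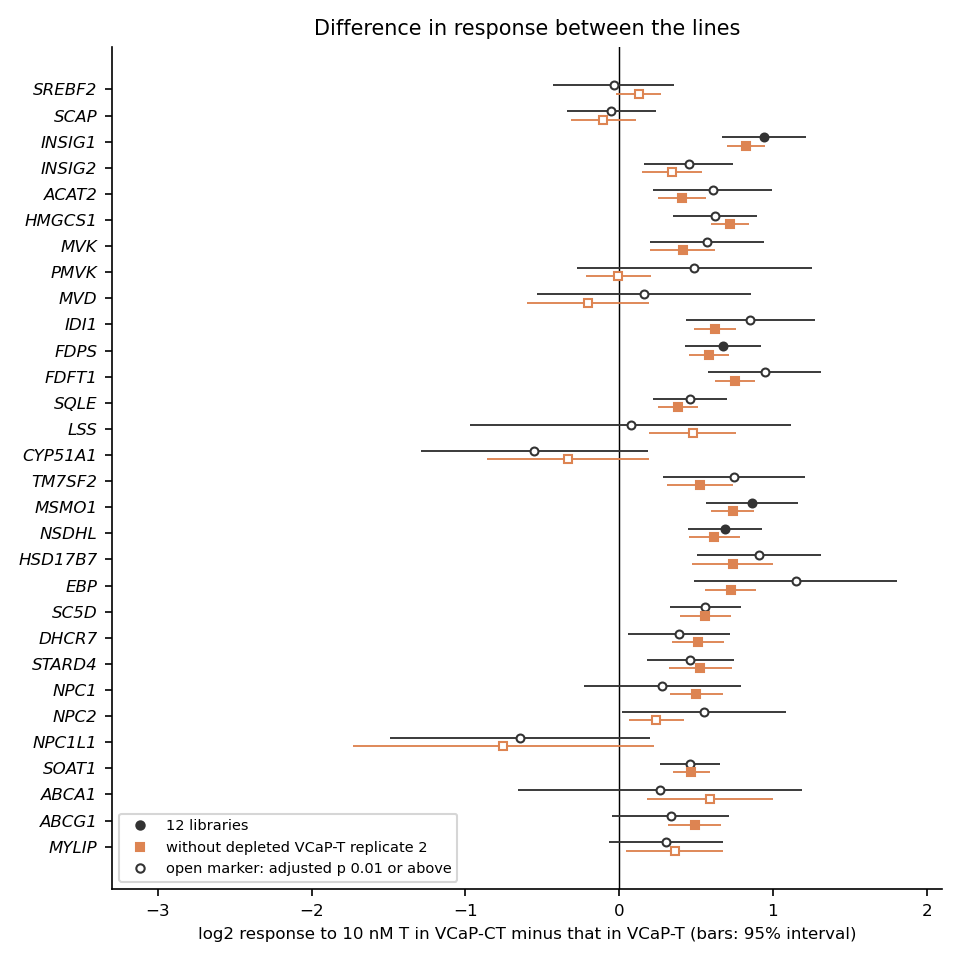
Log2 response to 10 nM T in VCaP-CT minus that in VCaP-T (x axis) for the 30 genes (y axis); bars are 95% intervals, circles the fit of 12 libraries, squares the fit without depleted VCaP-T replicate 2, and filled markers an adjusted p under 0.01. With 12 libraries 4 genes are filled, and 19 without that library.

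Promoter sequences are shown because 17 of the members rose together on rechallenge. Of the 30 genes, 26 had windows in the RefSeq promoter table (GRCh38.p14), 33 windows in all of 250 bases before to 50 after a start, and ABCG1, ACAT2, FDFT1 and SQLE are named only. The windows were searched on both strands, exactly, for TCACNCCAC (a core of the sterol regulatory element, bound by SREBP), CCAAT (bound by NF-Y), GGGCGG (bound by SP1), AGAACA and its reverse complement spaced by 3 bases (the androgen receptor palindrome) and AGGTCA repeated with a spacing of 4 (bound by LXR). None of these motifs contains another. CCAAT was in 22 of 33 member windows (66.7%), beside 34.6% of 35116 windows in the table, and GGGCGG in 30 (90.9%), beside 45.0% of all windows and 63.3% of those of genes tested here. The sterol element core was in 1 member window, that of SREBF2, and in 1.13% of all windows, while the androgen and LXR motifs were in 0 member windows and in 0.00285% and 0.0199% of all.

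The stretches below end before the gene start in both the promoter table and the count files, and capitals mark the first 3 motifs on either strand. INSIG1, STARD4 and HMGCS1 are shown as the 3 members that rose most on rechallenge, SREBF2 as the holder of the sterol element core, and ABCA1 as the member that moved furthest the other way. The positions are chr7:155297628-155297775 (+ strand) for INSIG1, chr5:111512591-111512740 (- strand) for STARD4, chr5:43313513-43313662 (- strand) for HMGCS1, chr22:41832929-41833078 (+ strand) for SREBF2 and chr9:104928238-104928387 (- strand) for ABCA1, each 5′ to 3′ of the gene's strand.
INSIG1: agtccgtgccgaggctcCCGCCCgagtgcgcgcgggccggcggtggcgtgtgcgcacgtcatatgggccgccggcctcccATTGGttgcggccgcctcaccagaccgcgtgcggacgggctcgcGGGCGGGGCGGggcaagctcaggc
STARD4: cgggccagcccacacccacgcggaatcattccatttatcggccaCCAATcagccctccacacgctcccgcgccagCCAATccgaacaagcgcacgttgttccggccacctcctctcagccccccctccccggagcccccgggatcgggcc
HMGCS1: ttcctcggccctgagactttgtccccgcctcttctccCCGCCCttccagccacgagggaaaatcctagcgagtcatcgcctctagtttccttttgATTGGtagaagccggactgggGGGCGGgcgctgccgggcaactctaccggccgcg
SREBF2: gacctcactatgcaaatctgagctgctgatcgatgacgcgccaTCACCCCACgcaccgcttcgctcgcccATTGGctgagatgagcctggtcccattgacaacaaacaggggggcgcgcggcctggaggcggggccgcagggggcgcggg
ABCA1: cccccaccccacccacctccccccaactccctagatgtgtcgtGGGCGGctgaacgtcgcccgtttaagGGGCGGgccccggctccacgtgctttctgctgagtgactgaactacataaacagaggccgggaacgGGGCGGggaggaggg
INSIG1, STARD4, HMGCS1 and SREBF2 each hold CCAAT or its complement ATTGG in these stretches, STARD4 2 of them, and the ABCA1 stretch holds 3 GGGCGG and no CCAAT. In the full windows, of members called higher on rechallenge, only NPC1 lacked CCAAT. Of those called higher on depletion, TM7SF2 and NPC2 held it and INSIG2 did not. Of those called in neither treatment with all libraries, MYLIP, NPC1L1, MVD, LSS and SREBF2 held it, and ABCA1, CYP51A1, PMVK and SCAP did not. A match is a description of letters, and its absence says nothing of a factor.

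Related genes outside the 30, from lists written for this comparison, moved in part with the enzymes. Their counts stand beside 7.07% of all genes called higher and 7.19% lower on rechallenge, and 6.15% higher and 3.83% lower on depletion. Of 12 genes of SREBP1 and fatty acid synthesis, 8 were called higher and 0 lower on rechallenge (median log2 0.55), and 0 higher and 5 lower on depletion (median -0.48). Without depleted VCaP-T replicate 2 these were 11 and 0 on rechallenge and 0 and 8 on depletion, beside 19.0%, 17.6%, 14.4% and 12.6% of all genes. SCD, the stearoyl-CoA desaturase, averaged 70300.1 normalized counts in rechallenged VCaP-CT and 31300.1 in maintained VCaP-CT (log2 1.17, SE 0.12, adjusted p = 2.92e-05), and 28395 in depleted VCaP-T and 46815 in maintained VCaP-T (log2 -0.72, SE 0.12, adjusted p = 0.00146). Among 11 genes of SREBP processing and sterol-regulated degradation, 2 were called higher on rechallenge, RNF145 and SYVN1, and 1 lower on depletion, SYVN1, a ubiquitin ligase of the endoplasmic reticulum, and without that library 2 were higher and 1 lower on rechallenge and 3 higher and 2 lower on depletion. The isoprenoid branches, 14 genes that lead to prenylated proteins, dolichol and ubiquinone, gave 2 higher and 1 lower on rechallenge and 1 higher and 1 lower on depletion, against 7 and 1, and 1 and 4, without it.

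Uptake outside the members was mixed. Of 16 measured of 17 genes of other uptake, hydrolysis and transfer, 5 were called higher and 3 lower on rechallenge, and 3 higher and 3 lower on depletion, and without depleted VCaP-T replicate 2 the counts were 7 and 4, and 5 and 3. VLDLR, a lipoprotein receptor, averaged 1268 normalized counts in rechallenged VCaP-CT and 496 in maintained VCaP-CT (log2 1.35, SE 0.07, adjusted p = 1.74e-07), and 678 in depleted VCaP-T and 1325 in maintained VCaP-T (log2 -0.97, SE 0.07, adjusted p = 5.11e-06). GRAMD1C, a sterol transfer protein, went the opposite way (log2 -1.39 on rechallenge, adjusted p = 1.13e-05, and 1.04 on depletion, adjusted p = 0.00016). In the list of LXR and oxysterol metabolism, 10 of 14 genes were measured, 0 were called on rechallenge and 1 on depletion, CYP39A1, an oxysterol hydroxylase (log2 0.94, SE 0.13, adjusted p = 0.000398), while 1 was higher and 2 lower on rechallenge and 2 higher on depletion without that library.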

How the data were processed

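RNA from 12 libraries (4 groups of 3) was sequenced by the authors as paired 75-base reads of poly(A) RNA prepared with a stranded kit. Per the labels and methods, reads were aligned with STAR 2.5.4b to GRCh38, and the deposited counts are fragments per gene over Gencode 28 exons, made with featureCounts 1.6.2 without use of strand and without fragments that mapped or were assigned more than once. The authors also deposited a normalized table, here treated as a signal, made with DESeq2 1.24.0; it served only to check that its values are the counts over 1 factor per library (largest relative deviation 5.09e-15).

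Counts were scaled (TMM), filtered (filterByExpr) and fitted with edgeR 4.0.16 in R 4.3.3, in 1 quasi-likelihood model of the 4 groups with 8 residual degrees of freedom and Benjamini-Hochberg adjustment over 19162 genes. The fit was tested on simulated counts with known changes, drawn from maintained VCaP-T means with the same fixed spread for every gene. No simulated library stood apart as depleted VCaP-T replicate 2 did, so the test does not cover that case. FPKM was computed from the scaled counts and the full exon length, bases shared with other genes included. Full statistics were given for the up to 4 most changed called members per direction, for members also past the study's thresholds (log2 fold change over 1, median difference over 13), and for those against the majority sign. Other lists gave at most 3 genes. Members and lists were chosen with earlier results of these data known. Alternatives were DESeq2 1.42.0, other scalings, no filter, 6 libraries alone, a replicate block, a threshold of 0.05 and leaving out single libraries. Depth was 30174831 to 40825204 fragments.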

Additional observations from a re-analysis of the deposited data

Results flagged for a closer look

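The response to 10 nM T differed between the lines, by the test of the difference itself, for 4 of the 30 genes. All 4 were higher, where 0.804% of all genes tested were called higher. Taken as VCaP-CT minus VCaP-T on the log2 scale, the difference was 0.943 for INSIG1, 0.865 for MSMO1, 0.688 for NSDHL and 0.675 for FDPS, with adjusted p of 0.00202, 0.00522, 0.00558 and 0.00749 by edgeR's quasi-likelihood test. All 4 were called higher on rechallenge, while FDPS and MSMO1 were not called on depletion. Over 12 fits that each left out 1 library the call was lost in 10 for FDPS, 10 for NSDHL, 9 for MSMO1 and 5 for INSIG1. Without depleted VCaP-T replicate 2, 19 of the 30 were called higher, where 5.62% of all genes were, and with a replicate block 1 was. The 4 genes cover feedback control, the farnesyl diphosphate step and the removal of methyl groups from lanosterol. In this test line cannot be told apart from passage or from the direction of the switch. VCaP-T lost T for 48 h and VCaP-CT gained it for 48 h.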

How the results depend on the processing

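No member's call turned its direction. Over 2400 member values under the alternatives, 2163 kept their side of the threshold, 139 lost a call and 98 gained one, and no scaling moved the median of all genes by as much as 0.1 on the log2 scale. Fitting only the 6 libraries of each pair gave 0 members higher and 1 lower on depletion, 2 lower on rechallenge, 16 higher and 5 lower between the lines in their own media, 6 higher and 0 lower at 0.1 nM T, and 1 lower at 10 nM T. Over all genes these fits called 1.10% higher and 0.443% lower on depletion, 19.7% and 19.5% on rechallenge, 27.5% and 29.5% in own media, 6% and 9.96% at 0.1 nM T, and 23.1% and 23.3% at 10 nM T. At an adjusted p under 0.05, depletion gave 5 higher and 10 lower, rechallenge 1 lower and the response difference 10 higher. DESeq2 called 1 lower on rechallenge, as did edgeR without a filter, and 11 higher for the response difference. Leaving out single libraries gave 1 to 5 higher and 3 to 15 lower on depletion, 16 to 19 higher and 0 to 2 lower on rechallenge, 7 to 18 higher and 3 to 5 lower in own media, 8 to 21 higher and 2 lower at 0.1 nM T, 18 to 26 higher and 0 to 2 lower at 10 nM T, and 0 to 19 higher for the response difference. The upper ends came without depleted VCaP-T replicate 2. Fits without it for rechallenge, own media and 10 nM T were chosen after seeing the data and gave 19 and 2, 18 and 5, and 26 and 2 members higher and lower. Of all genes they called 19.0% and 17.6%, 26.7% and 26.7%, and 24.7% and 23.2%. The low ends on depletion came without maintained VCaP-T replicate 2 (1 higher, 3 lower) or 3 (1 higher), and at 0.1 nM T without maintained VCaP-CT replicate 1 (8). The causes were not tested. With a replicate block the response difference gave 1 call and depletion 3 higher and 4 lower, beside 846 and 475 of all genes on depletion. Same-numbered libraries correlated at -0.51 to 0.24 in their deviations from the group mean. Libraries also differed from their sisters with GC content (rho up to 0.76 over all genes), so this check cannot tell whether the numbers pair them. NPC1L1, with 10 to 24 fragments, is limited by depth.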
